A study of Mus musculus with 48 samples.

Results

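The integrated stress response regulators described here are 10 mouse genes, Atf4, Atf5, Atf3, Ddit3, Ppp1r15a, Trib3, Chac1, Sesn2, Ddit4 and Nupr1, taken by symbol from the 55487 genes of the deposited count table. Their RNA and their ribosome footprints were measured in clones of Ba/F3, a mouse cell line that grows on interleukin-3 and is described as pro-B, in a series on Rps15 mutations found in chronic lymphocytic leukaemia. The 8 genotypes, each with 3 clones from a CRISPR-Cas9 panel, were wild type (WT), Rpl5+/-, Rpl11+/-, Rpl22+/-, Rpl22-/-, Rpl10 R98S/R98S, Rps15 P131S/P131S and Rps15 H137Y/H137Y, all in genes of ribosomal proteins. Each clone gave 1 poly(A) RNA library and 1 library of 28 to 30 nucleotide footprints from the same lysate, so there were 24 libraries of each kind. Cultures held 10% serum and interleukin-3 at 1 ng/ml, and cells were kept in 0.1 mg/ml cycloheximide for 1 min before lysis, and the labels name no stress treatment. A genotype is represented by 3 clones of 1 cell line, and p-values therefore measure the spread between clones. The series title concerns translation in cells with these Rps15 mutations, and each mutant was set against the same 3 WT clones, which the 7 comparisons share.

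In the integrated stress response, kinases phosphorylate the initiation factor eIF2 when amino acids, haem or protein folding fail or double-stranded RNA is sensed. General initiation then falls, while mRNAs with short upstream open reading frames (uORFs), among them Atf4, Atf5, Ddit3 and Ppp1r15a, escape that block. ATF4 protein then switches on genes for amino acid supply, for feedback and for cell death, of which Ddit3, Trib3, Chac1, Sesn2, Nupr1, Atf3 and Ddit4 are widely used readouts. The deposited counts are per gene, so footprints on a uORF and footprints on the main reading frame of the same mRNA cannot be told apart.

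ATF4 binds with C/EBP partners at an element close to TGATGNAA (TTNCATCA on the other strand), and the promoter stretches that carry it are shown because they are the letters through which several of these genes are read as ATF4 targets. Within 250 bases before and 50 bases after each RefSeq start (GRCm38.p6), windows were found for all 10 members, and 4 of the 10 held the element on either strand, against 3.97% of all 32851 mouse promoter windows of that length. Each is written 5′ to 3′ on the gene's strand with the element in capitals. The last line shows the Ppp1r15a promoter, the one member with the full cAMP response element TGACGTCA, which 1.79% of all windows hold. The elements start at -110 (Nupr1), -193 (Chac1) and -110 (Atf3) from the gene start, at 15 bases into the transcript for Trib3 and at -12 for Ppp1r15a. A match is a description of the letters only.
Nupr1, minus strand, chr7:126625543-126625610: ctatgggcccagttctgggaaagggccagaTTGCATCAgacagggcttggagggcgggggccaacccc
Chac1, plus strand, chr2:119351019-119351086: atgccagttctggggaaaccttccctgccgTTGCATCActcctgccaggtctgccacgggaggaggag
Atf3, minus strand, chr1:191183406-191183473: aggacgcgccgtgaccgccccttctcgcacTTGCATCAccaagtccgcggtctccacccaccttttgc
Trib3, minus strand, chr2:152344028-152344057, inside the transcribed part: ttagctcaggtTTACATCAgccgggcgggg
Ppp1r15a, minus strand, chr7:45526269-45526310: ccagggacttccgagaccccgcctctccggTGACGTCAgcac

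Total counts were 13029073 to 38258559 per RNA library and 15598994 to 72044439 per footprint library. Rpl5 and Rpl11 RNA lay lower in every heterozygous clone than in every WT clone (1534 to 1589 CPM, which puts libraries of unequal depth on 1 scale, against 2283 to 2338, and 1008 to 1150 against 1665 to 1686). Rpl22 footprints were 274 and 317 CPM in clones 649 and 776 labelled Rpl22-/-, but 1544 CPM in clone 30 of that label, inside the range of the Rpl22+/- clones (1429 to 1596), so that results for the clones labelled Rpl22-/- are also given without it. Counts per gene do not check the point mutations. The B-lineage markers Ebf1, Ms4a1, Rag1 and Rag2 were at or near 0 in these cells. Cd79b, a part of the B-cell receptor, had 4.03 CPM in P131S, where it was called lower, and 6.65 to 7.41 CPM in the other genotypes, and Cd79a reached 9.81 CPM in 1 Rpl5+/- clone. The summed RNA of 11 myeloid markers was 497 to 2600 CPM in H137Y clones, 510 to 2530 CPM in P131S clones and 27.6 to 384 CPM in the other clones, while Ly6c2 was at 0. In the Rps15 genotypes most of it was S100a8 (mean 539 CPM in P131S and 445 in H137Y) and S100a9 (756 and 710 CPM), against 17.7 and 28.4 CPM in WT. Of the 9 myeloid markers tested, 6 were called higher in P131S and 8 in H137Y. Among all 12814 genes tested in RNA, 3031 and 2697 were called higher there, and 47% and 41% were called in either direction. Of 4 mast cell and basophil markers tested, 2 were called higher and 1 lower in P131S and 1 higher and 1 lower in H137Y, with the basophil protease Mcpt8 at 14.5 and 18.7 CPM against 0.118 CPM in WT, and a summed RNA of 433 to 582, 343 to 429 and 442 to 475 CPM. Of 4 tested markers of interleukin-3 dependent progenitors, 2 were called higher in P131S, and 2 higher and 1 lower in H137Y, with the receptor chain Csf2rb at 1525 and 992 CPM against 530 CPM, and a summed RNA of 2490 to 3130, 1610 to 2700 and 1130 to 1270 CPM. Most of that sum came from Csf2rb and Csf2rb2, while Kit and Cd34, also on that list, were at or near 0 in every genotype. With only 4 genes tested on each of these last 2 lists, their counts cannot be set apart from the 47% and 41% of all genes called. The part of these markers in the Rps15 results below was not tested. In these bulk libraries fewer cells with a transcript and less of it per cell cannot be told apart.

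In both Rps15 genotypes 6 of the 8 measurable members fell in RNA and 7 of 8 fell in footprints, whereas in the other 5 genotypes 1 to 3 members were called in RNA. Those smaller counts moved with the fit, to 7 in Rpl11+/- without clone 414 and to 7 in Rpl10 R98S when only it and WT were fitted. In that last fit 35.4% of all genes were called. The Rps15 counts moved too. With all clones 7 members were called in each Rps15 genotype, in RNA as in footprints. With single clones left out it was 5 to 6 in P131S and 6 to 7 in H137Y, at both levels. Atf5, Ddit3, Trib3, Sesn2, Ddit4 and Nupr1 were the 6 that fell in RNA, with log2 changes of -0.99 to -2.86 in P131S and of -1.10 to -4.83 in H137Y. Atf4 joined them in footprints while its RNA did not fall. Ppp1r15a, which encodes the phosphatase subunit that reverses eIF2 phosphorylation, did not fall in either: its RNA was called higher in H137Y, with 1 clone below WT, and was not called in P131S, and its footprints were not called. A change is called here at an adjusted p under 0.05 in edgeR's quasi-likelihood test with Benjamini-Hochberg adjustment over all genes tested. Of 56 member and genotype pairs tested against WT, 25 were called in RNA (5 higher and 20 lower), 16 in footprints (1 higher and 15 lower) and 1, lower, in translational efficiency, which is the footprint change beyond the RNA change.

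These counts stand beside a wide background in the Rps15 clones. In RNA the share of all 12814 genes called against WT was 47% in P131S, where 7 of 8 members were called (1 higher, 6 lower), and 41% in H137Y, where 7 of 8 were called (1 higher, 6 lower). It was 12.9% in Rpl10 R98S (3 of 8 members lower), 11.8% in Rpl11+/- (1 higher, 2 lower), 5.27% in the clones labelled Rpl22-/- (1 higher, 1 lower), 3.9% in Rpl22+/- (1 higher, 1 lower) and 1.04% in Rpl5+/- (1 lower). In footprints it was 16.7% of 16217 genes in P131S and 11.7% in H137Y, with 7 of 8 members lower in each. Footprint shares elsewhere were 1.62% in Rpl10 R98S, 0.253% in Rpl22+/- (1 member higher), 0.105% in the clones labelled Rpl22-/- (1 member lower), 0.074% in Rpl11+/- and 0.0123% in Rpl5+/-, with no member called where none is given. The median log2 change of the 8 members in RNA was -1.62 in P131S and -1.83 in H137Y, and it lay between -0.79 (Rpl10 R98S) and 0.04 (the clones labelled Rpl22-/-) in the others, while the median over all genes tested stayed within 0.05 of 0. In footprints the members' median was -1.78 in P131S and -1.67 in H137Y.

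**Figure D1:**
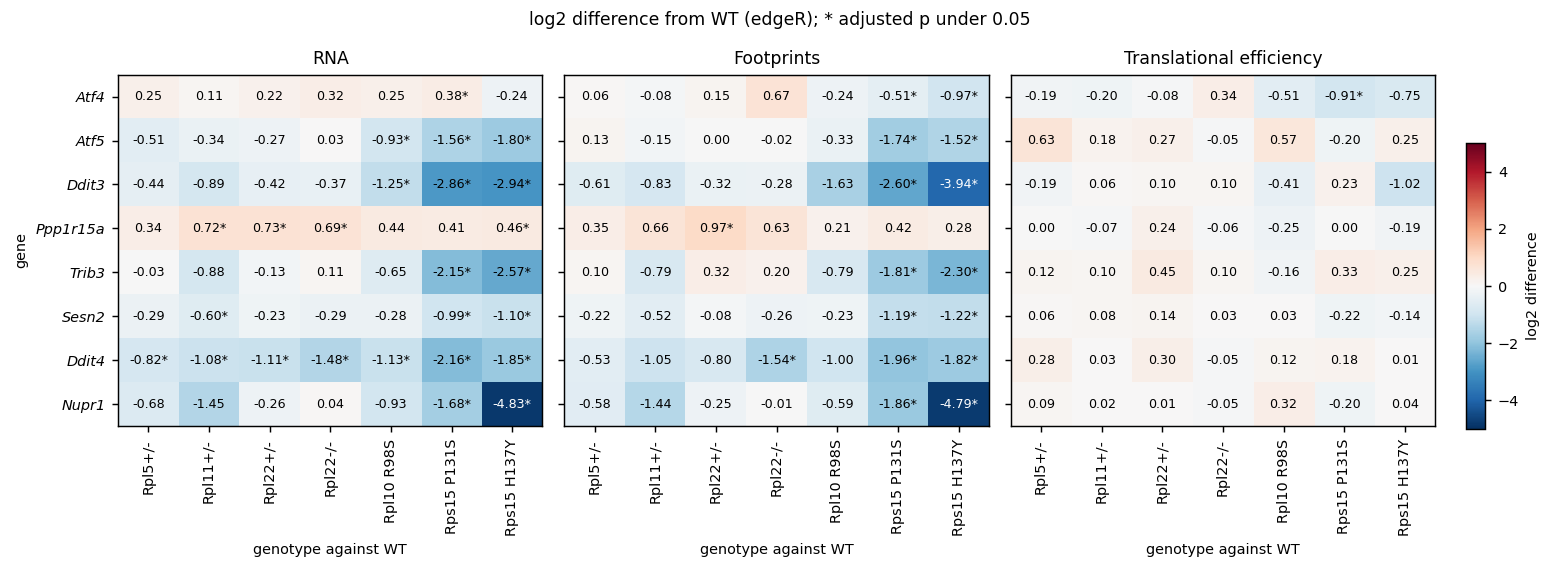
Log2 change against WT of the 8 measurable members (rows) in the 7 mutant genotypes (columns) in RNA, footprints and translational efficiency; colour gives the log2 change and marked cells have an adjusted p under 0.05. The Rps15 columns are lower for every member but Ppp1r15a in footprints, and a single cell is marked in translational efficiency.

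Atf4, the transcription factor at the centre of the response, gained RNA and lost footprints in P131S clones. Its RNA was 418, 421 and 418 CPM in WT clones 3, 2 and 1, the order kept for WT below, and 502, 512 and 626 CPM in P131S clones 24, 63 and 20. Its footprints were 111, 131.3 and 142 CPM in WT and 81.7, 90.8 and 98 CPM in P131S. All P131S clones were thus above WT in RNA and below WT in footprints, with no overlap at either level. The log2 changes were 0.38 ± 0.15 (SE) in RNA (adjusted p = 0.0408), -0.51 ± 0.17 in footprints (adjusted p = 0.045) and -0.91 ± 0.23 in translational efficiency (adjusted p = 0.0208, edgeR), where 3.14% of 16568 genes were called. Leaving out any 1 of the 6 clones ended both the footprint and the efficiency call, the latter with adjusted p up to 0.145. The RNA call was lost without P131S clone 20 or any WT clone, and also with limma voom and without the count filter. In edgeR the footprint call was lost with RLE scaling (adjusted p = 0.0541) and the efficiency call without the count filter (adjusted p = 0.0591).

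In H137Y, Atf4 footprints were the lowest of any genotype. They were 60.6, 57.3 and 77.6 CPM in clones 16, 6 and 2, all below WT, and fell by 0.97 ± 0.17 on the log2 scale (adjusted p = 0.000925). Atf4 RNA was 425, 222 and 419 CPM in the same clones, so that clones 16 and 2 lay within a few CPM of WT and clone 6 far below it. The RNA change of -0.24 ± 0.15 was not called (adjusted p = 0.213). Its translational efficiency differed from WT by -0.75 ± 0.23 (adjusted p = 0.0727), in a comparison with 2.76% of all genes called. The call was made in 2 of 7 alternatives, with DESeq2 and with the clone kept as a block across its RNA and footprint libraries (adjusted p = 0.0261, edgeR). The other alternatives gave no call, among them the per-clone ratios, which also pair the libraries of a clone. With single clones left out it was made in 1 of 6 fits, without clone 6 (-0.89, adjusted p = 0.0166). In the others adjusted p was up to 0.378 (edgeR).

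In the other genotypes no Atf4 change passed the test. RNA lay above all WT clones in each of them, in Rpl5+/- (485 to 506 CPM), Rpl11+/- (434 to 490 CPM), Rpl22+/- (473 to 504 CPM), the clones labelled Rpl22-/- (516 to 534 CPM) and Rpl10 R98S (480 to 510 CPM). The clones labelled Rpl22-/- also had the highest Atf4 footprints, at 204, 205 and 202 CPM against 111 to 142 CPM in WT, without overlap. That difference of 0.67 ± 0.17 had an adjusted p of 0.173 and was 0.67 without clone 30. Atf4 footprints overlapped WT in Rpl10 R98S (85.5, 119 and 120 CPM), Rpl5+/- (141, 130.3 and 130 CPM), Rpl11+/- (132, 147 and 83.6 CPM) and Rpl22+/- (129, 155 and 144 CPM).

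**Figure D2:**
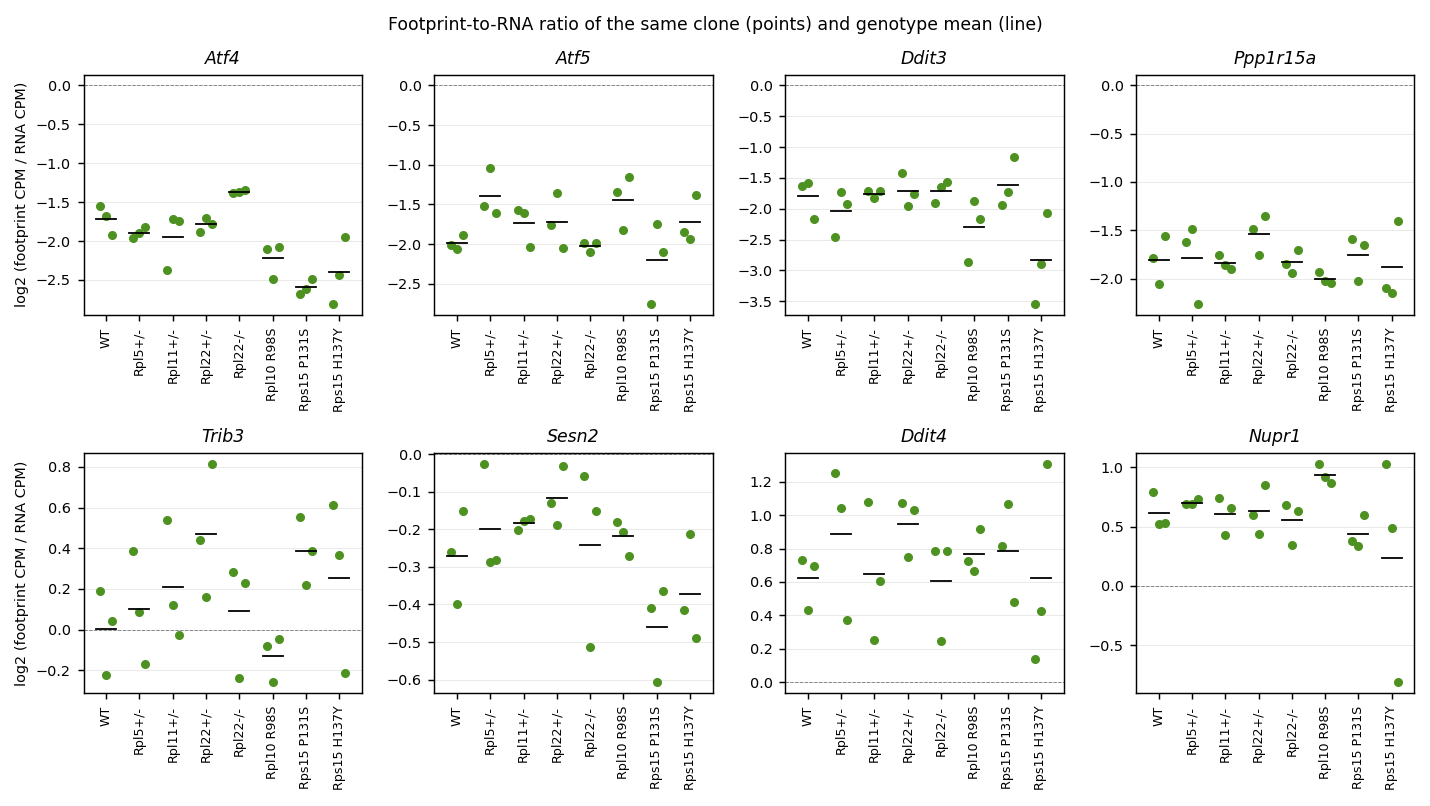
Log2 ratio of footprint CPM to RNA CPM for each measurable member, 1 point per clone, with the mean of each genotype as a bar. For Atf4 the P131S clones lie between -2.68 and -2.49, below every WT clone, and the clones labelled Rpl22-/- between -1.38 and -1.35, above every WT clone.

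The ratio of footprint CPM to RNA CPM put the 4 uORF genes together in WT cells. Its mean log2 value over the 3 WT clones was -1.72 for Atf4, -1.99 for Atf5, -1.80 for Ddit3 and -1.80 for Ppp1r15a, and between 13% and 16.2% of 11966 genes lay below them. For members not known for such uORFs it was -0.27 (Sesn2), 0.00 (Trib3), 0.61 (Nupr1) and 0.62 (Ddit4), against a median over all genes of -0.26 and quartiles of -1.19 and 0.54. The ratio was not corrected for the share of each transcript that is coding, nor for reads with several matches, whose treatment is not given. Rpl10, for instance, had 1942 CPM of RNA but 3.5 CPM of footprints in WT, and the cause was not tested. Across genotypes the mean Atf4 ratio ran from -2.60 in P131S over H137Y (-2.40), Rpl10 R98S (-2.22), Rpl11+/- (-1.94), Rpl5+/- (-1.89), Rpl22+/- (-1.79) and WT (-1.72) to -1.37 in the clones labelled Rpl22-/-. The neighbouring P131S and H137Y means did not differ beyond their spread, since the H137Y clones ran from -2.81 to -1.95 and the efficiency difference between them was -0.16 ± 0.23 (adjusted p = 0.993). The WT clones, at -1.92 to -1.56, lay above the P131S and H137Y clones.

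For the remaining members no efficiency call was made in any genotype. In P131S the efficiency differences of Atf5, Ddit3, Ppp1r15a, Trib3, Sesn2, Ddit4 and Nupr1 lay between -0.22 and 0.33. The widest value in H137Y among them was -1.02 ± 0.53 for Ddit3 (adjusted p = 0.392), whose footprints there were few. Efficiency differences of the 8 members in Rpl5+/- ranged from -0.19 to 0.63 and in Rpl11+/- from -0.20 to 0.18, comparisons in which 0% of all genes were called. The share called was 0.00604% in Rpl22+/-, 0.0121% in the clones labelled Rpl22-/- and 0.217% in Rpl10 R98S, again with no member among them; the Rpl10 R98S value of Atf4 was -0.51 ± 0.23 (adjusted p = 0.573).

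**Figure D3:**
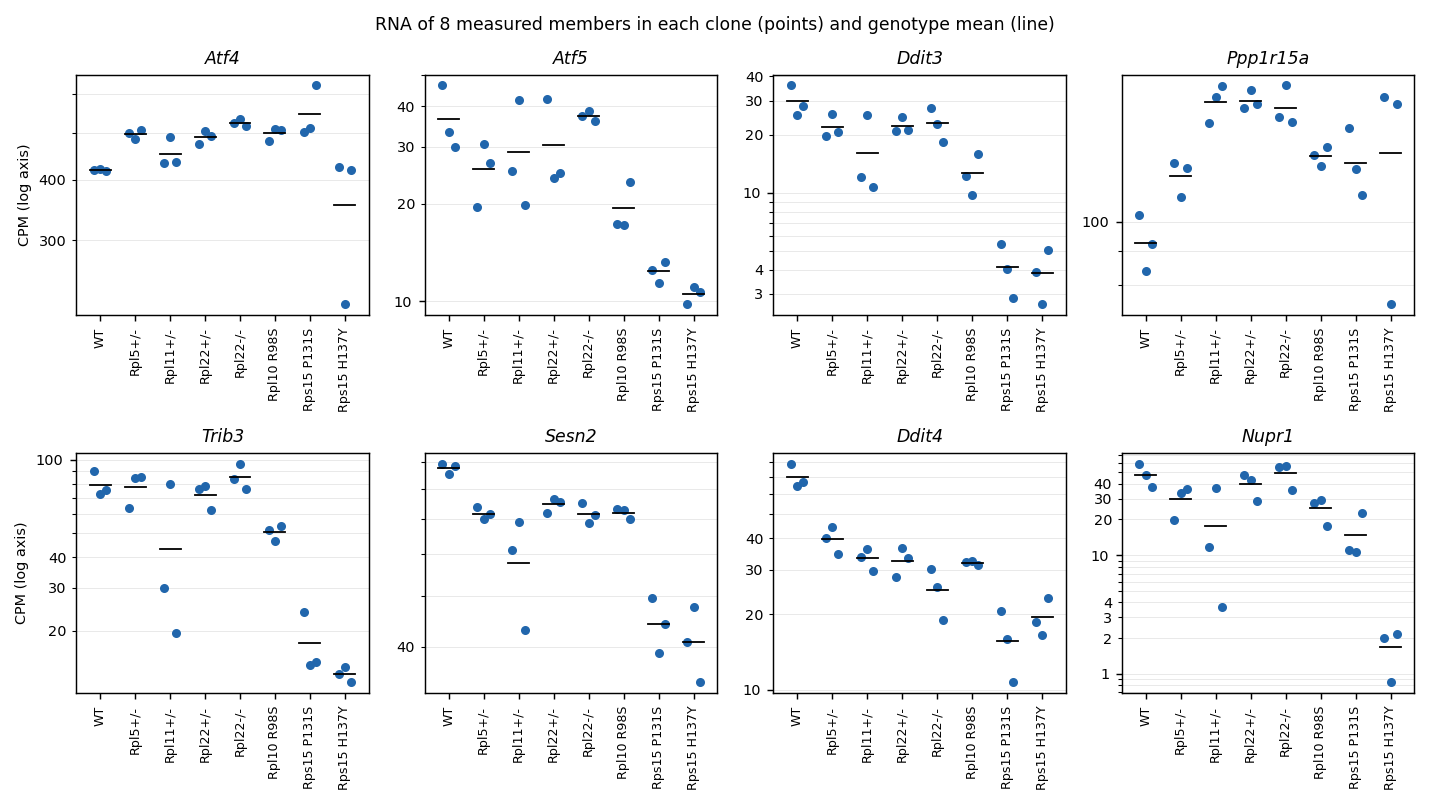
RNA of each measurable member in CPM on a log axis, 1 point per clone in each of the 8 genotypes, with the mean of each genotype as a bar. Ddit4 and Sesn2 are highest in the 3 WT clones, and Nupr1 falls to 0.853 to 2.16 CPM in H137Y.

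Ddit3, which encodes CHOP, the factor that links prolonged stress to cell death, had the largest fall in the Rps15 genotypes among the measured transcription factors of the set. Its RNA was 36, 25.2 and 28.1 CPM in WT, 5.46, 4.04 and 2.84 CPM in P131S and 3.89, 2.66 and 5.05 CPM in H137Y. The Rps15 clones lay far below WT with no overlap, and the log2 changes were -2.86 ± 0.32 and -2.94 ± 0.32 (adjusted p = 1.89e-06 and 1.75e-06). Ddit3 footprints were 7.97, 8.41 and 9.07 CPM in WT, 1.64, 1.80 and 0.742 CPM in P131S and 0.333, 0.634 and 0.681 CPM in H137Y, with log2 changes of -2.60 ± 0.44 and -3.94 ± 0.47. In Rpl10 R98S its RNA was 12.2, 9.78 and 15.9 CPM, also below every WT clone, a change of -1.25 ± 0.29 (adjusted p = 0.00962), and its footprints, at 3.33, 1.34 and 3.54 CPM, differed by -1.63 ± 0.42 (adjusted p = 0.0519). The Rpl10 R98S call in RNA was lost without WT clone 3 or Rpl10 R98S clone A29.

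Atf5, a relative of Atf4 that is likewise controlled by uORFs, was lower in the same 3 genotypes. Its RNA was 46.3, 33.3 and 29.8 CPM in WT, 12.5, 11.4 and 13.2 CPM in P131S, 9.80, 11.1 and 10.6 CPM in H137Y and 17.4, 17.2 and 23.4 CPM in Rpl10 R98S. No clone of these genotypes reached the lowest WT clone, and the log2 changes were -1.56 ± 0.26, -1.80 ± 0.26 and -0.93 ± 0.25 (adjusted p = 8.51e-05, 3.05e-05 and 0.0209). Atf5 footprints were 12.5, 7.99 and 7.41 CPM in WT, 3.73, 2.65 and 1.96 CPM in P131S and 2.73, 4.25 and 2.78 CPM in H137Y. They fell by 1.74 ± 0.36 and 1.52 ± 0.36 in the Rps15 genotypes (adjusted p = 0.00209 and 0.00821). The Atf5 footprint difference in Rpl10 R98S was -0.33 ± 0.35 (adjusted p = 0.79). Without WT clone 3 the H137Y footprint call and the Rpl10 R98S RNA call were lost, the latter also without clone A29 or A30.

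Ppp1r15a, or GADD34, recruits protein phosphatase 1 to eIF2 and so ends the response. Its RNA was 102, 83.9 and 92.4 CPM in WT, 142, 156 and 162 CPM in Rpl11+/-, 150, 159 and 152 CPM in Rpl22+/- and 145, 162 and 143 CPM in the clones labelled Rpl22-/-. It rose in these 3 genotypes, by 0.72 ± 0.17, 0.73 ± 0.17 and 0.69 ± 0.17 (adjusted p = 0.012, 0.0219 and 0.0241), with every mutant clone above every WT clone. Without clone 30 the last of these was 0.63 (adjusted p = 0.105). Both Rpl22 calls were lost without any single clone other than WT clone 3, and the Rpl11+/- call without WT clone 2 or Rpl11+/- clone 22. H137Y clones had 156, 74.7 and 152 CPM, so that clone 6 lay below WT and the others above; the call there (0.46 ± 0.17, adjusted p = 0.0417) was lost without clone 16, clone 2, WT clone 1 or WT clone 2, and without clone 6 the change was 0.73. It was also lost with limma voom, without the count filter and with only H137Y and WT fitted (adjusted p up to 0.242). P131S clones had 139, 121 and 110 CPM, all above WT, a difference of 0.41 ± 0.17 that missed the threshold (adjusted p = 0.0606). Rpl5+/- clones (123, 109 and 121 CPM) and Rpl10 R98S clones (127, 122 and 130.5 CPM) were above WT too, without a call (adjusted p = 0.371 and 0.0985). In footprints only Rpl22+/- passed, with 53.4, 47.2 and 59.2 CPM against 34.7, 20.1 and 26.7 CPM in WT, a rise of 0.97 ± 0.18 (adjusted p = 0.0204) that was lost without any of 4 of the 6 clones.

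Ddit4, or REDD1, an inhibitor of the growth kinase complex mTORC1, was the one member called in every mutant genotype. Its RNA was 78.9, 64.6 and 67 CPM in the WT clones, and the highest of the 21 mutant clones, in Rpl5+/-, had 44.1 CPM. Rpl11+/- clones had 33.8, 36.3 and 29.6 CPM, Rpl22+/- clones 28, 36.4 and 33.3 CPM, the clones labelled Rpl22-/- 30.3, 25.5 and 18.9 CPM and Rpl10 R98S clones 32.2, 32.6 and 31.3 CPM. The Rps15 clones lay lower still in most cases, at 20.5, 15.9 and 10.7 CPM in P131S and 18.7, 16.5 and 23.1 CPM in H137Y. The log2 changes were -0.82 ± 0.18 in Rpl5+/-, -1.08 in Rpl11+/-, -1.11 in Rpl22+/-, -1.48 in the clones labelled Rpl22-/- (-1.49 without clone 30), -1.13 in Rpl10 R98S, -2.16 ± 0.19 in P131S and -1.85 ± 0.19 in H137Y. Adjusted p ran from 1.29e-07 in P131S to 0.0355 in Rpl5+/-, where the call was lost when any 1 of the 6 clones was left out. All 7 rest on the same 3 WT clones, which lay above all 21 others in 268 genes, 2.09% of those tested, with Ddit4 and Sesn2 among them, and below all others in 193 genes (1.51%), with no member among them.

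Ddit4 footprints gave fewer calls. They were 128, 87.2 and 111 CPM in WT, 42.9, 22.2 and 18.9 CPM in P131S, 20.5, 40.9 and 31.1 CPM in H137Y and 36, 43.9 and 32.6 CPM in the clones labelled Rpl22-/-. All 3 groups lay below WT, by 1.96 ± 0.28, 1.82 ± 0.28 and 1.54 ± 0.28 on the log2 scale (adjusted p = 0.000155, 0.000357 and 0.0256). Footprints lay below every WT clone, without a call, also in Rpl11+/- (40.3 to 62.5 CPM) and Rpl10 R98S (50.95 to 58.98 CPM). The same held for Rpl22+/- (58.9 to 67.85 CPM), while Rpl5+/- overlapped WT (52 to 90.7 CPM). The footprint differences were -1.05 in Rpl11+/- (adjusted p = 0.152) and -0.996 in Rpl10 R98S (adjusted p = 0.0711, edgeR), beside -1.08 and -1.13 in RNA. The call in the clones labelled Rpl22-/- was lost without clone 30 (-1.66, adjusted p = 0.0815) and without any of 4 other clones.

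Sesn2, a stress-induced leucine sensor that also restrains mTORC1, had nearly equal values among WT clones. Its RNA was 89.2, 85.3 and 88.2 CPM in WT, 49.4, 39 and 44.3 CPM in P131S, 40.9, 47.5 and 34.3 CPM in H137Y and 61.1, 69.2 and 43.1 CPM in Rpl11+/-. It fell in these 3 genotypes, by 0.99 ± 0.12, 1.10 ± 0.12 and 0.60 ± 0.12 (adjusted p = 2.95e-06, 1.07e-06 and 0.00383), with no overlap with WT, and the Rpl11+/- call was lost with only Rpl11+/- and WT fitted (adjusted p = 0.0555). Its footprints fell by 1.19 ± 0.14 in P131S and 1.22 ± 0.14 in H137Y, from 64.7 to 80.2 CPM in WT to 29.6 to 33.9 CPM in the 6 Rps15 clones. In the other 4 genotypes Sesn2 RNA was below all WT clones too, at 68.8 to 76.6 CPM, with differences of -0.23 to -0.29 that did not pass the test.

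Trib3, a pseudokinase that binds ATF4 and dampens its activity, was called lower in both Rps15 genotypes and in no other. Its RNA was 89.8, 72.5 and 75.1 CPM in WT, 23.9, 14.5 and 15 CPM in P131S and 13.3, 14.3 and 12.3 CPM in H137Y. These groups did not overlap, and the changes were -2.15 ± 0.35 and -2.57 ± 0.36 (adjusted p = 0.000107 and 3.27e-05). Its footprints fell by 1.81 ± 0.32 and 2.30 ± 0.33, from 62.2 to 92.5 CPM in WT to 19 to 27.7 CPM in P131S and 12.3 to 20.4 CPM in H137Y. Rpl10 R98S clones had 51.5, 46.7 and 53.4 CPM of Trib3 RNA and 43.1, 44.1 and 51.7 CPM of footprints, below every WT clone at both levels, but with differences of -0.65 ± 0.33 and -0.79 ± 0.31 that did not pass (adjusted p = 0.215 and 0.244). Rpl5+/-, Rpl22+/- and the clones labelled Rpl22-/- overlapped WT at both levels.

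Nupr1, a small chromatin-associated stress protein, had the widest range of RNA over the 8 genotypes among the members, 4.54 on the log2 scale. Its RNA was 58.9, 47.1 and 37.2 CPM in WT, 11.1, 10.7 and 22.7 CPM in P131S and 2, 0.853 and 2.16 CPM in H137Y. The 3 groups did not overlap. H137Y kept 3.53% of the WT level, a change of -4.83 ± 0.68 (adjusted p = 4e-05), and P131S changed by -1.68 ± 0.55 (adjusted p = 0.0191). Nupr1 footprints were 85, 67.6 and 64.4 CPM in WT, 14, 16.1 and 29.5 CPM in P131S and 4.09, 0.485 and 3.03 CPM in H137Y, with log2 changes of -1.86 ± 0.62 (adjusted p = 0.0481) and -4.79 ± 0.72 (adjusted p = 0.000388). Rpl10 R98S clones had 27.5, 29.3 and 17.5 CPM of Nupr1 RNA and Rpl5+/- clones 19.8, 33.6 and 36 CPM, all below every WT clone. Their means were 24.8 and 29.8 CPM against 47.7 CPM in WT. The differences of -0.93 ± 0.54 and -0.68 ± 0.54 did not pass the test. In P131S, leaving out any 1 of the 6 clones ended the footprint call, and the RNA call was lost without WT clone 3, P131S clone 24 or P131S clone 63.

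**Figure D4:**
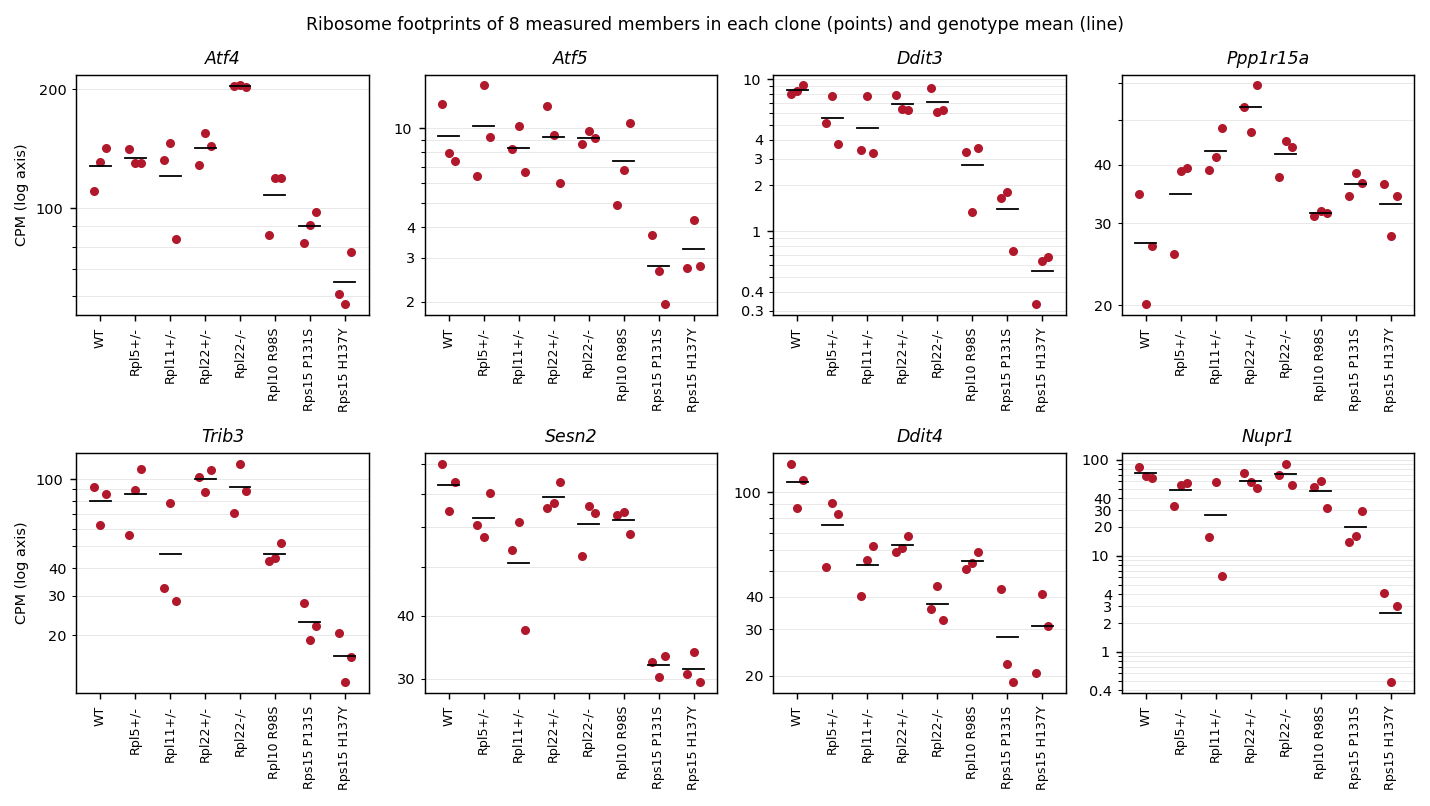
Ribosome footprints of each measurable member in CPM on a log axis, 1 point per clone in each of the 8 genotypes, with the mean of each genotype as a bar. Atf4 is highest in the clones labelled Rpl22-/- (202 to 205 CPM) and lowest in H137Y (57.3 to 77.6 CPM), and Rpl11+/- clone 414 stands above its 2 fellow clones for Trib3 and Nupr1.

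The 3 Rpl11+/- clones differed among themselves at 4 members. Clone 414 had 79.7 CPM of Trib3 RNA, inside the WT range, where clones 406 and 22 had 30 and 19.5 CPM. For Nupr1 the values were 37 CPM in clone 414 against 11.7 and 3.68 CPM, for Ddit3 25.3 CPM against 12.1 and 10.7 CPM, and for Atf5 41.7 CPM against 25.2 and 19.8 CPM. With clone 414 in the fit none of these 4 was called (adjusted p = 0.0968 for Trib3, 0.0939 for Nupr1, 0.0523 for Ddit3 and 0.411 for Atf5). Without it all 4 were called lower, by 1.68, 2.63, 1.38 and 0.70 on the log2 scale (adjusted p = 7.14e-05, 0.00231, 0.00164 and 0.0454). Clone 414 stands out by these same values, so leaving it out was bound to widen the falls, and that refit is a description only. Leaving out another single clone gave adjusted p up to 0.333 for Trib3, 0.263 for Nupr1, 0.227 for Ddit3 and 0.848 for Atf5 (edgeR). Sesn2 and Ddit4 RNA fell, and Ppp1r15a RNA rose, with or without clone 414. Footprints showed the same clone apart, with 78.4 CPM of Trib3 in clone 414 against 32.6 and 28.3 CPM, and 58.2 CPM of Nupr1 against 15.8 and 6.17 CPM.

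Atf3 and Chac1, which encode a stress-induced transcription factor and a glutathione-degrading enzyme, were hardly measured. Atf3 had 10 RNA counts in 6 of 24 libraries and 12 footprint counts in 7 of 24, never more than 5 in a library. Chac1 had 0 RNA counts in all 24 libraries, which allows up to 0.00465 CPM over all of them, and 1 footprint count. Neither passed the filter on low counts, so no change could be tested at this depth. Both promoters hold the TTNCATCA letters printed above, as do those of Nupr1 and Trib3, which were well measured.

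Set directly against each other, the Rps15 genotypes differed at Atf4 and Nupr1. Atf4 RNA was higher in P131S by 0.62 ± 0.15 (adjusted p = 0.0048), and by 0.38 without H137Y clone 6 (adjusted p = 0.000976). That call was lost with only the 2 Rps15 genotypes fitted (adjusted p = 0.213). Nupr1 was higher in P131S by 3.14 ± 0.68 in RNA (adjusted p = 0.00298) and by 2.92 ± 0.67 in footprints (adjusted p = 0.0182), the latter call being lost without H137Y clone 6 (2.50, adjusted p = 0.0576), H137Y clone 2 or P131S clone 20. In this comparison 25.2% of genes were called in RNA, 4.17% in footprints and 0.682% in efficiency. The 6 other members differed in RNA by -0.31 to 0.42 and were not called; for Trib3 the 95% interval of the difference was -0.29 to 1.12, so a difference of that size cannot be told apart from none with these clones. Ddit3 footprints differed by 1.34 ± 0.44 (adjusted p = 0.0883).

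The clones labelled Rpl22-/- and the Rpl22+/- clones did not differ in any member by the test. In that comparison 0.0078% of genes were called in RNA, 0.00617% in footprints and 0% in efficiency. The Atf4 differences were 0.10 ± 0.15 in RNA and 0.52 ± 0.17 in footprints (adjusted p = 0.22), and the Ddit4 footprint difference was -0.74 ± 0.28 (adjusted p = 0.26). Clone 30, whose Rpl22 footprints match the heterozygous clones, is among the clones labelled Rpl22-/- here.

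Other targets of ATF4, most of them genes of amino acid supply, fell in the Rps15 genotypes and, fewer in number, in Rpl11+/-. From a list of 46 symbols, older spellings included, 40 were in the table and 33 passed the RNA filter. Of these 33, 23 were lower in P131S, 26 in H137Y, 13 in Rpl11+/-, 3 in Rpl10 R98S, 2 in Rpl22+/-, 2 in the clones labelled Rpl22-/- and 0 in Rpl5+/-, and 0 were higher in any of the 7. Of all 12814 genes, 2993 were called lower in P131S, 2557 in H137Y, 775 in Rpl11+/-, 773 in Rpl10 R98S, 361 in Rpl22+/- and 487 in the clones labelled Rpl22-/-, and the counts of 2 and 3 in the last 3 of these lie little above that background. The Rpl11+/- count was 28 without clone 414 and 2 to 5 without any other single clone, and its count in footprints was 0 with clone 414 and 11 without it. The list's median log2 change in RNA was -0.57 in P131S, -0.84 in H137Y and -0.41 in Rpl11+/-. Among them were Slc38a2, a glutamine transporter, which changed by -0.76 ± 0.08 in P131S and -0.89 ± 0.08 in H137Y, and Slc3a2, the heavy chain of amino acid exchangers, which changed by -0.69 ± 0.09 and -0.87 ± 0.09. Cebpg, a C/EBP partner of ATF4, fell in 6 of 7 genotypes, from 97.7 CPM in WT to 46.6 CPM in P131S and 46.9 CPM in H137Y. Not all bZIP partners of ATF4 and CHOP fell, since Jun and Maff were each called higher in 4 genotypes. Jun RNA was 125 CPM in P131S and 61 CPM in H137Y against 39.2 CPM in WT. In footprints 14 of 35 of the other ATF4 targets were lower in P131S and 21 of 35 in H137Y, with 0 higher. The P131S count was 8 without WT clone 1 or P131S clone 63. Of all 16217 genes tested in footprints, 1342 were called lower in P131S and 1044 in H137Y. Between the Rps15 genotypes 12 of 33 were higher and 1 lower in P131S RNA, where 1616 of all 12814 genes were called higher and 1618 lower.

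**Figure D5:**
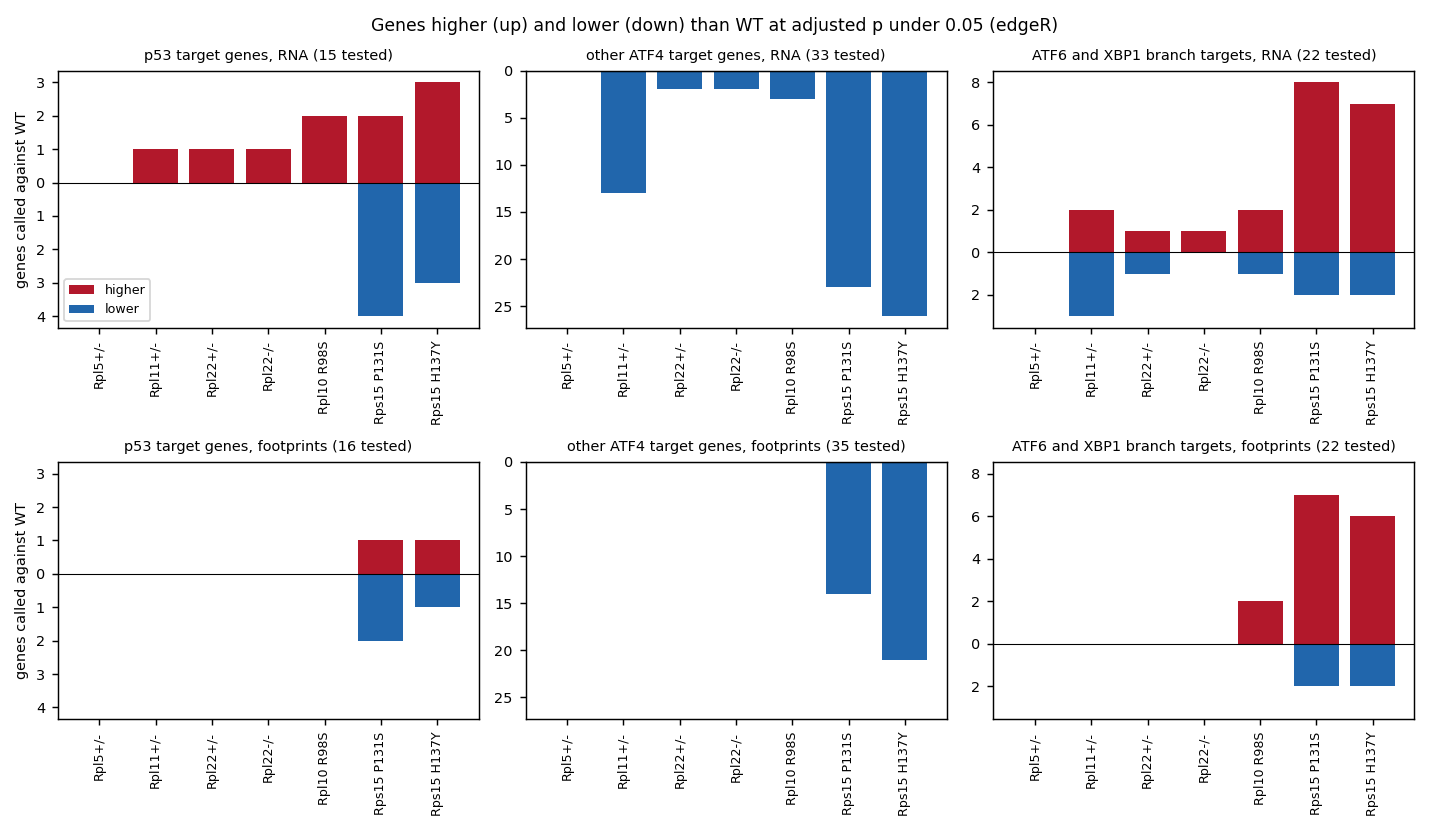
Number of genes called higher (up) and lower (down) in RNA (upper row) and footprints (lower row) against WT in each of the 7 genotypes for other ATF4 targets, for targets of the ATF6 and XBP1 branches and for p53 targets. In RNA the ATF4 targets are called lower only, with 23 and 26 of 33 in the Rps15 genotypes, while the other 2 lists hold calls in both directions.

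Upstream of ATF4, the kinases and their substrate showed mixed changes. Of the 4 eIF2 kinases, Eif2ak2, or PKR, the sensor of double-stranded RNA, was lower in 5 genotypes (Rpl11+/-, Rpl22+/-, the clones labelled Rpl22-/-, Rpl10 R98S and P131S), with 33.2 CPM in P131S, 53.1 CPM in H137Y and 52.6 CPM in WT. Eif2ak1, or HRI, the haem sensor, was higher in Rpl10 R98S (0.50 ± 0.08), P131S (0.37 ± 0.07) and H137Y (0.43 ± 0.07). Eif2ak3, or PERK, the kinase of the endoplasmic reticulum, was lower in Rpl11+/- (-0.30 ± 0.09). Of 8 measured subunits of eIF2 and its exchange factor eIF2B, 4 were higher and 1 lower in P131S RNA, and 1 was higher and 1 lower in H137Y, beside 47% and 41% of all genes called. The lower one was Eif2s2, the beta subunit of eIF2, at 404 CPM in P131S and 282 CPM in H137Y against 530 CPM in WT, and it was higher in Rpl10 R98S at 824 CPM. Nck1, an adaptor that has been tied to eIF2 dephosphorylation, fell in 6 of 7 genotypes, by 1.13 ± 0.12 in P131S and 1.07 ± 0.12 in H137Y, and Impact, an inhibitor of the kinase GCN2, rose in 4.

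Targets of the other branches of the unfolded protein response held calls in both directions. Of 22 measured targets of ATF6 and XBP1, 8 were higher and 2 lower in P131S RNA and 7 were higher and 2 lower in H137Y, close to the 47% and 41% of all genes called there. Hspa5, the chaperone BiP, rose in 6 of 7 genotypes, by 0.53 ± 0.08 in P131S and 0.52 ± 0.08 in H137Y, and Xbp1 fell, by 1.37 ± 0.16 and 1.15 ± 0.16. Several members are also described as p53 targets. Of 15 measured p53 targets outside the member list, 2 were higher and 4 lower in P131S and 3 were higher and 3 lower in H137Y, again near the shares of all genes (47% and 41%). Plk3, a stress-induced kinase, was higher in 5 of 7 genotypes and at 20.8 CPM in P131S against 5.12 CPM in WT. Of 16 regulators of mTORC1 on which Sesn2 and Ddit4 act, 4 were higher and 3 lower in P131S and 3 were higher and 4 lower in H137Y, also near those shares, and Tsc1 was lower in 5 genotypes.

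Across the 8 genotypes the RNA profile of Nupr1 was followed most closely by Gpr141, an orphan receptor, with a root mean square difference of 0.46 on the centred log2 scale over 12813 genes compared. Gpr141 had 116 CPM in WT, 88.3 CPM in P131S, 43.2 CPM in Rpl11+/- and 9.43 CPM in H137Y. Next came Aqp9, a glycerol and water channel (0.62), Jdp2, a bZIP repressor of the AP-1 family (0.66), Snrnp25 (0.68) and Il16 (0.72). This likeness rests on 8 genotype means and is a description.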

How the data were processed

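Poly(A) RNA and ribosome footprints were measured in 24 clones, with both libraries of a clone made from 1 lysate, per the labels' protocols. The authors deposited estimated counts per Ensembl gene for the 48 libraries, of which 11.5% of values were not whole. The submitters' processing notes name STAR 2.6.1d, Salmon 1.4.0, DESeq2 1.30 and GRCm38 without their roles, and the feature counted, the treatment of reads with several matches, the use of strand and the annotation are not given in the sources used here. If footprints were assigned to whole transcripts, counts of uORF genes include uORF footprints, and without strand, reads of overlapping genes cannot be told apart.

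Counts were rounded, filtered with filterByExpr and scaled by TMM within each assay (factors 0.913 to 1.061 for RNA and 0.877 to 1.079 for footprints). They were tested with edgeR 4.0.16 (R 4.3.3), by the quasi-likelihood test with Benjamini-Hochberg adjustment over all genes of a comparison and a threshold of 0.05. The 24 libraries of an assay entered 1 fit, and efficiency was taken as the assay by genotype interaction in a fit of all 48. Values per clone are CPM from the TMM-scaled totals. Replicates are clones. For a single gene an exact permutation test of 3 against 3 clones cannot go below p = 0.1, so none was used. Same-clone RNA and footprint libraries deviated together from their group means (correlations 0.15 to 0.548 over 12074 genes, above 0.1 in 24 of 24, against -0.452 to -0.0238 for different clones of a genotype), so clone numbers pair the assays. Deviations from a mean of 3 clones sum to 0, so the negative values follow from the positive ones and add no evidence. The main efficiency fit did not use this pairing, which entered only the alternatives with the clone as a block or per-clone ratios. No 2 libraries were identical. The test was also run on simulated counts. These were drawn without a clone effect shared by RNA and footprints, so for efficiency they do not cover the pairing above.

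The members, the pathway and marker lists and the tests were chosen with earlier results of these data known. Every member is named; from each pathway list up to 3 genes called in the most of the 7 RNA comparisons with WT could be named, ties going to the larger change. For the member with the widest range the 5 genes with the nearest profile over the 8 genotypes are named. Promoter sequences are from RefSeq (GRCm38.p6), and TGACGTCA was searched after TGATGNAA had been. Alternatives were RLE scaling, DESeq2 1.42.0, limma voom 3.58.1, no filter on low counts, only the 2 genotypes compared, each clone left out, and, for efficiency, the clone as a block or per-clone log2 ratios.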

Additional observations from a re-analysis of the deposited data

Results flagged for a closer look

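Both Rps15 mutations were compared with the same WT clones, and the direct test between the P131S and H137Y genotypes found members at which the 2 mutations differed. Atf4 RNA was higher in P131S by 0.62 on the log2 scale, with P131S clones at 502 to 626 CPM and H137Y clones at 222 to 425 CPM. With only the 2 Rps15 genotypes fitted it was not called (adjusted p = 0.213). Nupr1 was higher in P131S by 3.14 in RNA and by 2.92 in footprints, with P131S clones at 10.7 to 22.7 CPM of RNA and H137Y clones at 0.853 to 2.16 CPM. Rps15 RNA itself was 907, 1825 and 1935 CPM in P131S clones 24, 63 and 20 and 1829, 817 and 875 CPM in H137Y clones 16, 6 and 2, against 1433 to 1455 CPM in WT, and its part in these differences was not tested.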

How the results depend on the processing

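Of 45 member results called with all clones, 27 were called in every one of their refits, 32 under every alternative tool or setting and 29 with each clone left out. None of them changed sign, and 30 further results were called under at least 1 alternative. Over the 7 comparisons with WT, 25 of 56 pairs of a member and a genotype were called in RNA (19 to 33 with single clones left out), 16 in footprints (12 to 20) and 1 in efficiency (0 to 2). By genotype the leave-one-out counts in RNA were 0 for Rpl5+/-, 2 to 7 for Rpl11+/-, 1 to 2 for Rpl22+/-, 1 to 2 for the clones labelled Rpl22-/- and 1 to 3 for Rpl10 R98S. In footprints they were 0 to 3 for Rpl11+/-, 0 to 1 for Rpl22+/-, 0 to 1 for the clones labelled Rpl22-/- and 0 to 1 between the Rps15 genotypes, and in efficiency 0 for P131S and 0 to 1 for H137Y. For the Rps15 genotypes against WT the leave-one-out counts were 5 to 6 in P131S and 6 to 7 in H137Y, in RNA as in footprints. All clones gave 7 in each case. Alternative tools and settings gave 6 to 8 in RNA and 5 to 7 in footprints of P131S, and 6 to 7 and 7 in H137Y. With only the 2 genotypes compared in the fit, the share of all genes called moved too and is given in brackets. RNA calls were 4 in Rpl5+/- (15.8%), 4 in Rpl22+/- (10.5%) and 4 in the clones labelled Rpl22-/- (12%). There were 7 in Rpl10 R98S (35.4%), 2 in Rpl11+/- (7.12%, Sesn2 was lost) and 1 between the Rps15 genotypes (3.13%, Atf4 was lost). Footprint calls were 0 in Rpl22+/- (0.022%) and 2 in the clones labelled Rpl22-/- (0.358%). In Rpl10 R98S they were 3 (4.88%) and between the Rps15 genotypes 0 (0.243%). Without the count filter they were 0, 1 and 1 in RNA of Rpl5+/-, Rpl22+/- and the clones labelled Rpl22-/-, 1 in footprints of Rpl10 R98S and 0 in efficiency, P131S included. DESeq2 called 3, 2 and 2 members in footprints of Rpl11+/-, the clones labelled Rpl22-/- and Rpl10 R98S, 2 between the Rps15 genotypes, and 2 in efficiency, 1 of them in H137Y. limma voom called 6 in RNA of Rpl11+/-, 2 in footprints of Rpl10 R98S and 0 between the Rps15 genotypes. With the clone as a replicate block efficiency had 2 calls, Atf4 in P131S (-0.90, adjusted p = 0.00346) and Atf4 in H137Y (-0.70, adjusted p = 0.0261, 1 call); the block changed no other call. The cause was not tested. Atf3 and Chac1 were too low to test at these depths.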
